A study of Mus musculus with 4 samples.

Results

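Ribosome footprints on 4 genes of insulin and phosphoinositide signalling were followed in mouse embryonic fibroblasts: the docking protein gene Irs2, the lipid phosphatase gene Inppl1, the lipid kinase gene Pi4ka and the tumour suppressor gene Tsc2. They took 5 of the 63759 transcript rows of the deposited files, of which 26602 could be tested. The rule that chose them used the fold change between wortmannin and control, so that contrast is described for these genes and not tested. All libraries came from wild-type C57BL/6 fibroblasts that were grown to confluence, synchronised with dexamethasone (a glucocorticoid that brings the circadian clocks of cultured cells to a common phase) and warmed from 35 °C to 38.5 °C 24 h later. The control group (2 libraries) received no inhibitor, and the wortmannin group (2 libraries) received 17β-hydroxy wortmannin, an inhibitor of phosphoinositide 3-kinase (PI3K). Both groups were warmed, so the comparison is of the inhibitor in warmed cells only. The dose is not given in the labels used here. The study mentions independent experiments, but no label ties a library to one, so errors and p-values measure the spread between these libraries, which may be technical.

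The insulin and IGF receptors phosphorylate docking proteins of the Irs family, which recruit PI3K to the membrane. PI3K makes phosphatidylinositol trisphosphate, a lipid that brings the kinase Akt to the membrane, and lipid phosphatases remove it. Akt phosphorylates Tsc2 and so relieves the brake that the TSC complex puts on the growth kinase complex mTORC1, and active mTORC1 raises translation and in turn dampens signalling through Irs proteins. FOXO transcription factors, which Akt keeps out of the nucleus, are known activators of Irs2 transcription. Pi4ka makes the phosphatidylinositol phosphate of the plasma membrane from which the PI3K substrate is built.

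Footprints on Irs2 were 3.59-fold as abundant with wortmannin as without, and those on Inppl1 1.48-fold. Footprints on Tsc2 and Pi4ka were 1.53-fold and 1.44-fold less abundant. For each of the 4 genes the wortmannin libraries lay both above or both below the controls. The choice of the genes on this contrast favours such a separation, and its share over all rows was not counted. Across all rows tested, 33.1% passed the test of wortmannin against control described below.

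The stretch around each start codon is shown because ribosomes begin translation there, with the start codon in capitals, 6 bases of the leader before it and the first coding bases after it (GENCODE M21, GRCm38).
Irs2: gcggcgATGgctagcgcgcccctgcctggg
Inppl1: tgggccATGgcctcagtgtgtgggacaccg
Tsc2: cccaccATGgccaaaccaacaagcaaagat
Pi4ka: ctttgcATGtgcccagtagattttcatgga
Irs2, Inppl1 and Tsc2 have a purine 3 bases before the start codon and a G directly after it, the bases favoured at initiation sites, as do 39.4% of 39889 annotated coding transcripts. Pi4ka has neither, so the pair with fewer footprints after wortmannin differs in this feature. The annotated leaders of Inppl1 are 540 and 282 nucleotides long and hold 4 and 2 upstream ATG triplets. Those of Pi4ka are 78 and 278 nucleotides long with none and 1. The Tsc2 leader of 119 nucleotides holds none. An ATG lies in the leader of 57.6% of annotated coding transcripts. For Irs2 GENCODE gives a leader of 28 nucleotides without an ATG, but RefSeq starts the gene 471 bases further upstream, so the length of its leader is not settled by these annotations.

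The 250 bases before the RefSeq start of Irs2 (GRCm38.p6, chr8:11008930-11009179, minus strand) are shown because Irs2 had the largest difference of the 4 genes. Capitals mark an E-box (CACGTG), the site of clock and TFE-family factors, and TGTTTTG, a form of the insulin response element that FOXO factors bind.
Irs2 promoter: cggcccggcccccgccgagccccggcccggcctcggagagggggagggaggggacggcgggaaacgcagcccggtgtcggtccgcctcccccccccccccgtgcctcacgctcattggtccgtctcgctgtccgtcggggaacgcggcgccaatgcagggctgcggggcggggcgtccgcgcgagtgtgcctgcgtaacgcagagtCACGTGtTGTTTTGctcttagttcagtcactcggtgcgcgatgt
The E-box begins 44 bases and TGTTTTG 37 bases before the start, and they do not overlap. On either strand CACGTG occurs in 6.02% and TGTTTTG in 5.56% of 32851 mouse promoter windows of the same length. The FOXO consensus GTAAACA (3.17% of windows), the cyclic AMP response element TGACGTCA (1.55%) and the heat shock element (0.466%) have no match in this window. All 4 genes matched the RefSeq table, with 6 windows in all. In the others the only matches were 2 of GTAAACA, 207 and 122 bases before the start in the upstream window of Pi4ka (chr16:17406315-17406564, minus strand).
Pi4ka upstream promoter: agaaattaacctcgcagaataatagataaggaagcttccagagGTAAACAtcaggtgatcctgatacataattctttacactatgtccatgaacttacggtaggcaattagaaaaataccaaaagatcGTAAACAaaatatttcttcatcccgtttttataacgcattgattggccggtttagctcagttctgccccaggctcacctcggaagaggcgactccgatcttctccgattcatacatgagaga
A match is a run of letters and was not tested as a binding site, and footprints do not separate transcription from translation.

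The files give transcript IDs and coding lengths and no gene names, so the identity of each row was checked. Deposited lengths are 9 codons below annotated ones: with that shift 94.6% of the 1466 longest transcripts had an annotated length, against 59.5% to 64.5% with other shifts from 0 to 20. The Tsc2 row (uc008awz.2, 1776 codons; chromosome 17, 24595816 to 24632630, GRCm38) and the Pi4ka row (uc007ykr.2, 2035 codons; chromosome 16, 17280351 to 17406314) have lengths that belong to no other gene. The Irs2 row (uc009kuz.1, 1312 codons; chromosome 8, 10984681 to 11008458) shares its length with Abcb11 and Mast3. Among the nearby rows of the file, 19 were long enough to be used (at least 300 codons), and 14 matched the length of a gene less than 1000000 bases from Irs2, against 1 for Abcb11 and 4 for Mast3. The Inppl1 rows (uc009ipg.2 and uc009iph.2, 1248 codons, identical counts; chromosome 7, 101822632 to 101838229) share their length with Per2, Ppfia2, Prdm16 and Synpo2. Here 10 of 17 neighbours had lengths from the Inppl1 locus, at most 1 from any other. For Tsc2 and Pi4ka the neighbours came to 15 of 25 and 23 of 28. All 4 genes lie on the minus strand. Exons of other genes on the opposite strand cover 4.09% of the coding bases of Irs2 (9530052E02Rik), 4.83% of Inppl1 (Gm10602) and 3.9% of Pi4ka (Tmem191c), and none of Tsc2. Since no source used here says whether strand entered the counting, reads in those stretches cannot be told apart.

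Control replicate 1 held 15376778 counts and control replicate 2 held 31110420. The wortmannin libraries, at 7677780 and 7485868 counts, were shallower. Log2 CPM (counts relative to library size after TMM scaling) correlated at 0.993 within the control pair, 0.969 within the wortmannin pair and 0.921 to 0.943 between groups. Across all rows 33.1% passed the test of wortmannin against control, 15.8% higher and 17.3% lower (quasi-likelihood test of edgeR at 0.05 after Benjamini-Hochberg adjustment). All 4 genes were among them, a count that the choice of genes fixes. Without control replicate 1, and likewise without control replicate 2, 1 of the 4 remained past the threshold, Irs2; in DESeq2 Pi4ka did not pass. Of 18 fibroblast markers, 12 could be named and all 12 were tested: 7 were higher with wortmannin, among them Pdgfra (0.90 ± 0.10) and Pdgfrb (0.85 ± 0.11), and the collagen genes Col1a1 (-0.76 ± 0.14) and Col1a2 (-0.38 ± 0.12) were lower (median of the 12, 0.54; examples chosen after their values were seen). Their summed level, carried by a few matrix genes, was 76930 to 77130 CPM in control and 67230 to 76000 CPM in wortmannin libraries. No macrophage or epithelial marker (6 and 8 named) had enough counts to be tested. Summed levels of the tested markers overlapped between groups for endothelial (2 genes, 46.4 to 51.3 CPM in control and 40.4 to 55.5 with wortmannin) and neural cells (4 genes, 89.6 to 96.9 and 78.5 to 93.3). They were apart for muscle (2 genes, 4.54 to 6.29 in control and 2.68 to 3.06 with wortmannin) and for adipocytes (1 gene, 4.57 to 4.94 and 6.12 to 7.51). These low-count genes did not pass: edgeR adjusted p was 0.0996 for Myh6, 0.0759 for Myh7 and 0.0574 for Lipe. Of the endothelial and neural markers only Map2, a neural one, passed, as lower (-0.37 ± 0.11, edgeR adjusted p = 0.0328). The part of these markers in the results was not tested.

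Irs2, the docking protein through which insulin and IGF receptors reach PI3K, had 942 and 1792 footprints in control replicates 1 and 2 and 1679 and 1478 in the wortmannin libraries. Scaled to library size these were 60.5 and 57.3 CPM in control and 225 and 197 CPM with wortmannin. The wortmannin libraries thus held more Irs2 footprints than control replicate 1 even before scaling, at less than its total depth. The group means were 58.9 ± 2.26 and 211 ± 20.3 CPM (SD, n = 2). edgeR put the log2 fold change at 1.84 ± 0.11 (SE). On the log2 scale the nearest libraries of the groups lay 1.70 apart, while the controls differed by 0.08 and the wortmannin libraries by 0.20. The only other well-covered row of 1312 codons, uc007kxy.1, was at 55.9 and 53.0 CPM in control and 46.2 and 42.7 CPM with wortmannin, so it did not share the difference. Among the 10002 rows with distinct counts and a mean of at least 10 CPM, 68 had a larger positive fold change.

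Inppl1 encodes SHIP2, an inositol phosphatase that acts on the trisphosphate lipid made by PI3K. Its rows had 298 and 542 footprints in control and 184 and 219 with wortmannin, which came to 19.1 and 17.3 CPM against 24.7 and 29.1 CPM. The means were 18.2 ± 1.28 and 26.9 ± 3.14 CPM (SD, n = 2), and the fitted log2 fold change was 0.57 ± 0.13 (SE). The wortmannin libraries were both higher and did not overlap the controls, but the gap between the nearest libraries, 0.37 on the log2 scale, was not far above the difference of 0.24 between the wortmannin libraries. Of the other rows of 1248 codons, the length that Per2 shares, uc007cav.1 was at 9.31 and 11.2 CPM in control and 13.6 and 10.2 CPM with wortmannin, so its groups overlapped. No other such row exceeded 2.01 CPM in any library.

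Pi4ka, the lipid kinase of the plasma membrane, had 484 and 906 footprints in control and 169 and 143 with wortmannin. These were 31.1 and 29.0 CPM against 22.7 and 19.0 CPM, with means of 30.0 ± 1.49 and 20.9 ± 2.58 CPM (SD, n = 2). The log2 fold change was -0.52 ± 0.13 (SE). Both wortmannin libraries were lower than both controls, replicate 2 more so: the wortmannin libraries differed by 0.25 on the log2 scale and the nearest libraries of the groups by 0.35. Without wortmannin replicate 1 the log2 fold change was -0.66, and without replicate 2 it was -0.39.

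Tsc2, the subunit of the TSC complex that switches off the mTORC1 activator Rheb, had 522 and 999 footprints in control and 159 and 161 with wortmannin, or 33.5 and 31.9 CPM against 21.3 and 21.4 CPM. The means were 32.7 ± 1.12 and 21.4 ± 0.0584 CPM (SD, n = 2), and the log2 fold change was -0.61 ± 0.11 (SE). Of the 4 genes Tsc2 varied least within the groups, and the nearest libraries lay 0.58 apart on the log2 scale. Other full-length isoforms of Tsc2, of 1732 to 1799 codons, take 5 further rows. Their counts were within 513 to 523 and 970 to 999 in the controls and within 154 to 159 and 157 to 161 with wortmannin, at -0.61 or -0.62. With counts this close the rows most likely repeat the same reads, though how reads were assigned to transcripts is not stated. They are not taken as further evidence.

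**Figure D1:**
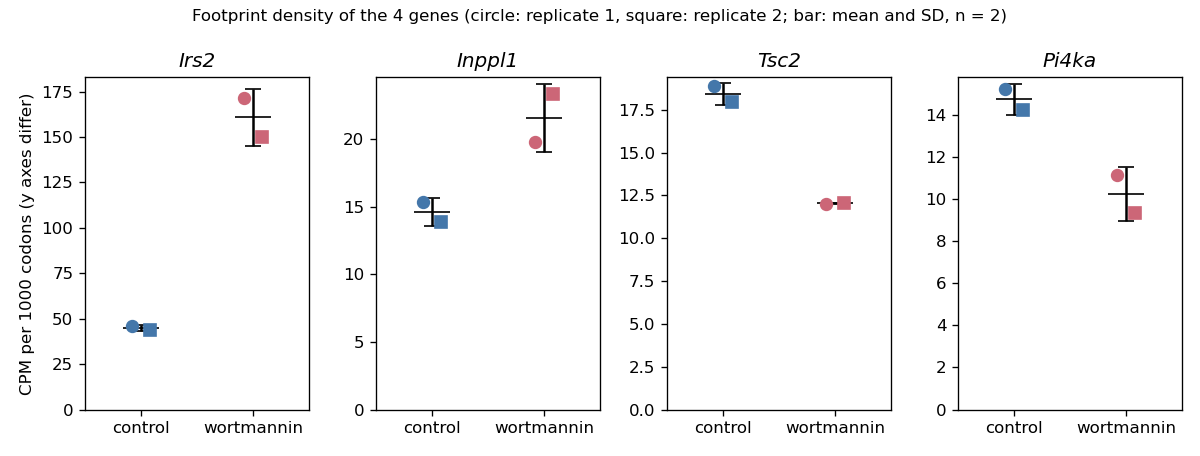
Footprint density (CPM per 1000 codons, vertical axes from 0 and different for each gene) in the control and wortmannin groups; points are libraries and bars the mean and SD (n = 2). Irs2 went from 44.9 to 161, Inppl1 from 14.6 to 21.6, Tsc2 from 18.4 to 12.0 and Pi4ka from 14.8 to 10.2. In no panel do the groups overlap, which the choice of the genes on this contrast favours.

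Divided by coding length, the levels can be set side by side between genes. In control libraries Irs2 stood at 46.1 and 43.7 CPM per 1000 codons, Tsc2 at 18.9 and 17.98, Inppl1 at 15.3 and 13.9 and Pi4ka at 15.3 and 14.2. Irs2 and Tsc2 kept their places in both libraries, while Inppl1 and Pi4ka changed places between them and did not differ beyond their spread. With wortmannin Irs2 was at 172 and 149.9, Inppl1 at 19.8 and 23.3, Tsc2 at 12.0 and 12.1 and Pi4ka at 11.1 and 9.35. Inppl1 thus stood below Tsc2 in both controls and above it in both wortmannin libraries. Among the 26602 tested rows ranked by density, Irs2 went from the top 24.5% and 26.0% in control to the top 5.57% and 6.43%. Tsc2 lay at 49.5% and 50.7% in control and at 65.0% and 65.3% with wortmannin, close to the middle and then below it.

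Ratios between the genes within a library do not depend on how libraries are scaled. Per codon, Irs2 had 2.44 and 2.43 times the footprints of Tsc2 in the controls and 14.3 and 12.4 times with wortmannin, a 5.47-fold change of the ratio. Irs2 to Pi4ka went from 3.02 and 3.07 to 15.4 and 16, and Irs2 to Inppl1 from 3.01 and 3.14 to 8.68 and 6.42. Inppl1 to Tsc2 went from 0.812 and 0.772 to 1.65 and 1.94. The ratio of Tsc2 to Pi4ka was 1.24 and 1.26 in control and 1.08 and 1.29 with wortmannin, so for this pair the groups overlapped. The groups were apart for 5 of the 6 pairs. Where a higher gene is set against a lower one, the choice of the genes on this contrast favours this. Irs2 and Inppl1 were both higher, so for that pair the direction alone does not give it. The ratios restate the fold changes on which the genes were chosen and support nothing further.

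**Figure D2:**
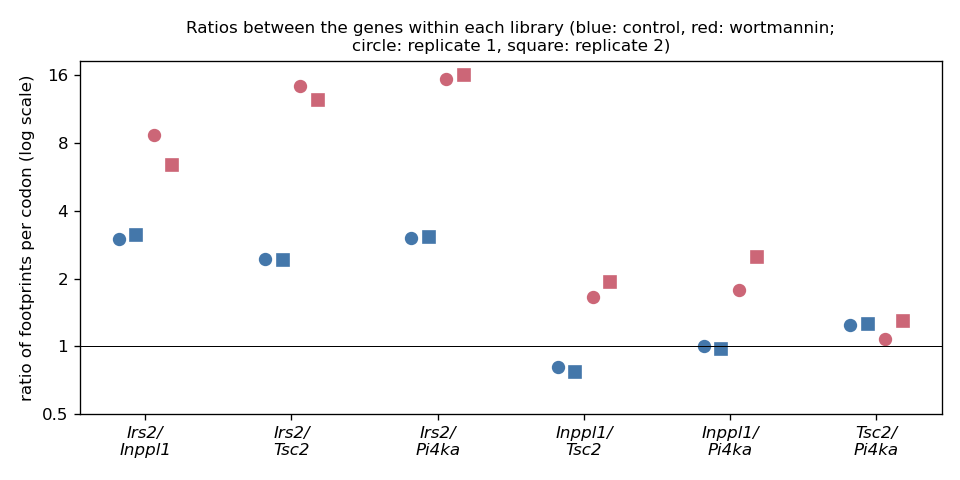
Ratio of footprints per codon for each pair of the 4 genes (log vertical axis) in control (blue) and wortmannin (red) libraries, with circles for replicate 1 and squares for replicate 2. The groups are apart for 5 pairs, the widest being Irs2 over Tsc2 (2.44 ± 0.0071 in control, 13.4 ± 1.3 with wortmannin, SD, n = 2), and overlap for Tsc2 over Pi4ka.

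Fold changes varied with coding length in these libraries, so the 4 genes were also set against rows of like length. Among 1413 rows with distinct counts and 1200 to 2100 codons, the median log2 fold change was 0.172, against 0.003 over all rows tested, and 34.2% passed the test, 25.1% as higher and 9.13% as lower. Of these rows 11 had a higher fold change than Irs2 and 274 a higher one than Inppl1, so Irs2 lay at the edge of the distribution and Inppl1 within it. A lower fold change than that of Tsc2 was seen in 66 rows and than that of Pi4ka in 96. These are rows, of which several can belong to 1 gene: without 8 rows of the 4 genes themselves (annotated isoforms, and rows within 25 lines with counts within 10% of theirs) the numbers were 65 and 91, and shorter rows next to Tsc2 may still be its own. These positions are a description, since the genes were chosen on this contrast.

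**Figure D3:**
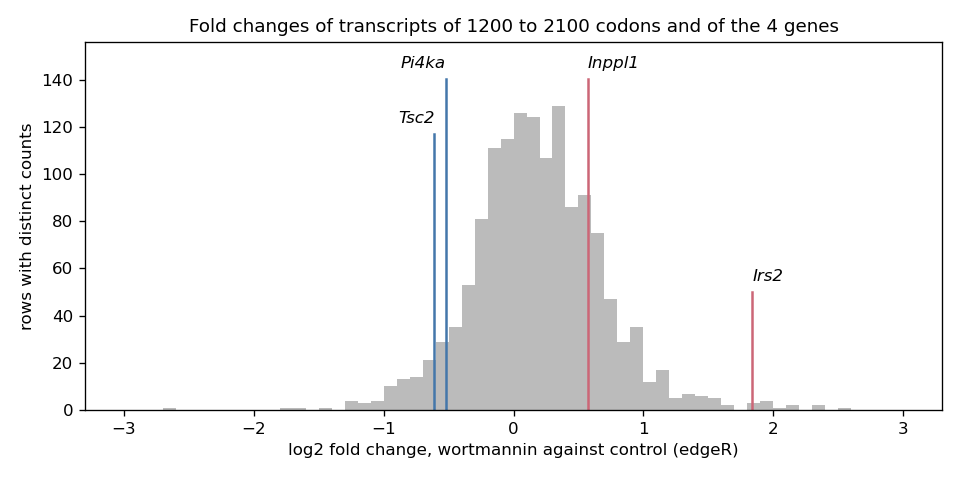
Histogram of edgeR log2 fold changes (horizontal axis) over the 1413 rows with distinct counts and 1200 to 2100 codons (vertical axis, rows), with lines at the 4 genes. Irs2 at 1.84 has 11 rows beyond it, while Inppl1 at 0.57 sits on the right shoulder and Tsc2 and Pi4ka at -0.61 and -0.52 on the left one.

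Named genes with the most similar profiles were sought among 223 other genes with a coding length of their own, by the distance between log2 CPM centred on each gene's mean over the 4 libraries. Among the nearest to Irs2 were BC005561 (distance 0.43) and Akna (0.51), with log2 fold changes of 1.82 ± 0.18 and 1.62 ± 0.31. Nearest to Inppl1 were Hectd4 (0.02), Gon4l and Camsap2 (0.07 each), with fold changes from 0.53 to 0.58. Among the nearest to Tsc2 were the basement membrane gene Nid1 (0.06) and Apc (0.14), a scaffold of beta-catenin destruction. Nearest to Pi4ka were the matrix gene Ltbp4 (0.09), the nuclear pore gene Nup214 (0.12) and again Apc (0.17). With 4 libraries in 2 groups, such likeness mostly restates the fold change.

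The other genes of the pathway came from 7 lists with 201 genes besides the 4. With names only from a coding length of their own, 16 could be named and 13 were tested. Of these, 4 were higher with wortmannin and none lower, with a median log2 fold change of 0.22; among all 225 genes so named 38.2% passed, 33.3% higher and 4.89% lower, with a median of 0.234. Among the 4 were Lrp1, an endocytic receptor (0.66 ± 0.10), the inositol trisphosphate receptor Itpr2 (0.47 ± 0.13) and Zfyve26 (1.24 ± 0.13), a protein that binds the lipid product of class III PI3K. Their edgeR Benjamini-Hochberg adjusted p-values were 0.00199, 0.0228 and 0.000231. The calls of Lrp1 and Itpr2 were lost when control replicate 1 was left out (edgeR adjusted p = 0.0855 and 0.159) and when control replicate 2 was (0.134 and 0.261), and that of Itpr2 also in DESeq2 (0.0816). Lower at an unadjusted p under 0.05 was 1 of the 13, Nf1 (-0.26 ± 0.10), and DESeq2 called 0 lower and 3 higher.

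Naming also from lengths that genes share, where the neighbouring rows pointed to 1 of them only, gave 8325 tested genes, and 130 of the listed ones. Irs2 and Inppl1 are named in the same way. Of the rows so named, 99.6% of 20054 lay on the chromosome of the surrounding rows with lengths of their own. Short lengths are shared by many genes and give less certain names. Of the 130 genes, 34 were higher (26.2%), 14 lower (10.8%) and 82 did not pass, with a median log2 fold change of 0.18; among all 8325 genes 36.8% passed, 15.1% higher and 21.7% lower, with a median of -0.06. The listed genes are longer, at a median of 931 codons against 475. Of the 61 listed genes with 1000 codons or more, 29.5% were higher and 6.56% lower, against 26.6% and 10.2% of all 1219 such genes, so long listed genes stood close to the background. Of the 69 shorter ones 23.2% were higher and 14.5% lower, against 13.1% and 23.7%. DESeq2 called 20 of the 130 higher and 6 lower. Leaving out control replicate 1 gave 15 higher and 4 lower, and leaving out control replicate 2 gave 14 and 3.

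**Figure D4:**
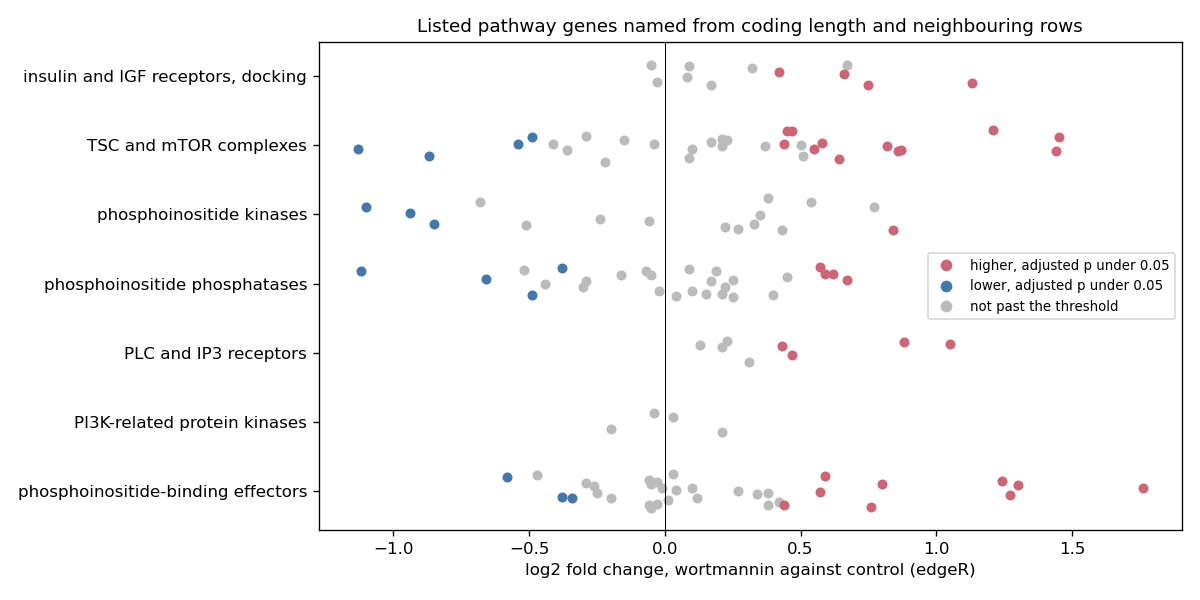
Log2 fold change (horizontal axis) of each listed pathway gene named from coding length and neighbouring rows, by list, with genes past the edgeR threshold in red (higher) or blue (lower) and others in grey. The TSC and mTOR list has 12 red and 4 blue points, and the 4 PI3K-related protein kinases are all grey. Among all genes named this way 15.1% were higher and 21.7% lower.

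Of 11 tested receptor and docking genes other than Irs2, 4 were higher (36.4%) and 0 lower (median 0.32). Among all genes named this way 15.1% were higher and 21.7% lower, and among those of 1000 codons or more 26.6% and 10.2%. The 4 higher genes all had 1000 codons or more. At an unadjusted p under 0.05, 0 were lower, and DESeq2 called 3 higher and 0 lower. The IGF receptor Igf1r, which signals through Irs2, rose from 209 and 222 CPM to 331 and 395 CPM (0.75 ± 0.12, edgeR adjusted p = 0.00186). This call was lost when control replicate 1 was left out (edgeR adjusted p = 0.0594). Gigyf1, a binding partner of the adaptor Grb10, rose by 1.13 ± 0.13 (edgeR adjusted p = 0.000411). Grb10, an inhibitor of both receptors, was at 0.09 ± 0.10 and did not pass. Irs1 and the insulin receptor gene Insr had no tested row that could be named.

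The TSC and mTOR list, besides Tsc2, had 12 of 31 genes higher and 4 lower (median 0.23), against the 15.1% and 21.7% of all genes named this way, and DESeq2 called 6 higher and 2 lower. Ulk1, the kinase that starts autophagy, rose from 20.1 and 20.3 to 53.3 and 57.1 CPM (1.45 ± 0.11, edgeR adjusted p = 3.99e-05). Larp1, which binds mRNAs with a terminal oligopyrimidine motif, was at -0.41 ± 0.14 (edgeR adjusted p = 0.0505) and passed with library totals only (-0.45, adjusted p = 0.0277). The partners of Tsc2 were named after their values had been seen. Tsc1, the other large subunit of the complex, was at 8.67 and 8.15 CPM in control and 13.3 and 11.3 CPM with wortmannin (0.55 ± 0.15, edgeR adjusted p = 0.0196), while Tsc2 was lower with wortmannin. Tsc1 did not pass in DESeq2 (adjusted p = 0.126) or, in edgeR, without control replicate 1 (0.127), control replicate 2 (0.239) or wortmannin replicate 1 (0.0542). The small subunit Tbc1d7 was at -0.36 ± 0.27 and the target Rheb at 0.09 ± 0.13, neither past the threshold.

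Of 16 phosphoinositide kinase genes besides Pi4ka, 1 was higher (6.25%) and 3 lower (18.8%; median 0.25), and DESeq2 called 1 and 1. Among all genes named this way 15.1% were higher and 21.7% lower. Pip5k1a, which makes the PI3K substrate from the product of Pi4ka, rose from 28.9 and 26.1 to 42.9 and 55.1 CPM (0.84 ± 0.14, edgeR adjusted p = 0.00235). Pip4k2c fell by 1.10 on the log2 scale (SE 0.20, edgeR adjusted p = 0.00372). Pik3r4, a subunit of class III PI3K, was at 0.27 ± 0.12 and did not pass. Of the genes of proteins that hold Pi4ka at the membrane, named after their values had been seen, those tested did not pass. Ttc7 was at 0.35 ± 0.22, Ttc7b at -0.68 ± 0.30, Fam126a at 0.38 ± 0.19 and Fam126b at 0.77 ± 0.33. At an unadjusted edgeR p under 0.05 only Fam126b of these passed, as higher. Levels were low, so a missing call says little. Fam126b was at 1.09 and 1.28 CPM in control and 1.61 and 2.53 CPM with wortmannin. Ttc7b was at 3.02 and 3.16 CPM in control and 1.34 and 2.53 CPM with wortmannin. Efr3a and Efr3b, also of this group, had no tested row that could be named.

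Of 28 phosphoinositide phosphatase genes besides Inppl1, 4 were higher and 4 lower (14.3% each, median 0.10), and DESeq2 called 1 higher and 2 lower. Among all genes named this way 15.1% were higher and 21.7% lower. Mtmr3 rose by 0.59 ± 0.11 (edgeR adjusted p = 0.0041) and did not pass without control replicate 1 or 2 (0.0684 and 0.136). Tns2, a tensin with a phosphatase-like domain, was at 0.09 ± 0.15 and did not pass.

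Of 8 phospholipase C and inositol trisphosphate genes, 4 were higher and 0 lower (median 0.37). At an unadjusted p under 0.05, 0 were lower, and DESeq2 called 2 higher and 0 lower. Of all genes named this way 15.1% were higher and 21.7% lower. Itpkc, an inositol trisphosphate kinase, rose by 1.05 ± 0.16 (edgeR adjusted p = 0.00166). Plcd3 rose by 0.88 ± 0.19 (edgeR adjusted p = 0.00924) but with control replicate 2 left out it was at 0.62 and did not pass (edgeR adjusted p = 0.15). Of the 4 tested PI3K-related protein kinases, which share the fold of the PI3K catalytic domain, 0 passed in edgeR. At an unadjusted p under 0.05 the count was 0, and in DESeq2 0. Mtor was at 0.21 ± 0.12 and Trrap at -0.04 ± 0.11.

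Of 34 genes of phosphoinositide-binding effectors, 9 were higher (26.5%) and 3 lower (8.82%; median 0.03), and DESeq2 called 7 and 1. Among all genes named this way 15.1% were higher and 21.7% lower. Among those of 1000 codons or more the shares were 26.6% and 10.2%, close to those of the effectors. Akap13, an anchoring protein of protein kinase A, rose by 1.30 ± 0.10 (edgeR adjusted p = 5.77e-05). Zfyve1, a FYVE-domain protein, rose from 17.6 and 15.5 to 47.1 and 64.7 CPM (1.76 ± 0.16, edgeR adjusted p = 0.000114). The Ras regulator Rasa3 was at 0.12 ± 0.15 and did not pass.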

How the data were processed

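Footprint counts per UCSC transcript were deposited for 4 libraries. The authors left the counts unnormalised, as far as the values show, since totals differ from library to library. The coding lengths that the authors deposited beside the counts are in codons. The submitters' processing notes name CASAVA 1.8, STAR 2.7.0 and mm10. How reads were assigned to transcripts is not stated in those notes.

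Counts were tested with edgeR 4.0.16 (R 4.3.3; TMM, default expression filter with a minimum count of 10, quasi-likelihood F test, Benjamini-Hochberg over all rows tested at 0.05). SEs were derived from the fold change and its F statistic. DESeq2 1.42.0 was an alternative. Centred profiles used log2 CPM with a prior count of 2. No mRNA libraries were used, so mRNA level and translation are not separated, and fewer cells or less RNA per cell cannot be told apart.

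A row took a gene's name from its coding length (GENCODE M21, GRCm38, minus 9 codons) where at least 0.5 of the usable rows up to 25 lines away (minimum 300 codons) matched genes less than 1000000 bases from it; 0.42% of 20000 random pairs of row and gene passed. The rule for named genes took, per list, up to 4 genes past the threshold by smallest p and the 2 most abundant others; of these the text gives at most the first 2 and the first 1, a narrowing made after the values were seen, and some genes that the rule takes are not reported here. Members, lists and motifs were chosen with earlier results of these data known. No protein sequences were used.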

Additional observations from a re-analysis of the deposited data

How the results depend on the processing

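The direction of the fold change of Irs2, Inppl1, Tsc2 and Pi4ka was kept under all alternatives run: library totals only, DESeq2 size factors, DESeq2, no low-count filter, a replicate block, 1 row per set of identical rows and each library left out. With 1 library left out, Irs2 ran from 1.73 to 1.95, Inppl1 from 0.46 to 0.68, Tsc2 from -0.65 to -0.58 and Pi4ka from -0.66 to -0.39, with the spread of the remaining library taken from the other group. Without a low-count filter Tsc2 was at -0.65. Over all rows tested, 4215 were higher and 4596 lower, DESeq2 called 2302 and 2691, and leaving out 1 library gave 1269 to 5724 higher and 1853 to 6283 lower. Listed pathway genes with a length of their own were 4 higher and 0 lower, 2 to 6 and 0 to 1 with 1 library left out, and 34 and 14 with names also from shared lengths and neighbours. Same-numbered libraries did not deviate together (correlation -0.059), and the labels do not say that numbers mark experiments. With the replicate block, 3729 rows were higher and 4134 lower, and Irs2, Inppl1, Tsc2 and Pi4ka were at 1.84, 0.57, -0.61 and -0.53. At depths of 143 to 219 footprints in the wortmannin libraries, counting error alone limits Inppl1, Tsc2 and Pi4ka more than Irs2.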
